A study of Mus musculus with 14 samples.

Results

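The genes described here are 43 Wnt pathway genes chosen by symbol: 10 frizzled receptors, 7 co-receptors and other receptors, 2 genes of Wnt secretion, 9 intracellular transducers, 6 nuclear factors and 9 transcriptional targets or feedback genes. They were taken from the 55892 gene symbols of 2 count tables from mouse cortex, in which all 43 have a row in both. Polyadenylated RNA was sequenced from layer II/III tissue cut from the cerebral cortex at postnatal day 5, after plasmids had been electroporated into progenitors in utero, at E15.5 in the progenitor experiment. In the progenitor experiment, all animals were Lhx2lox/lox, and the plasmid carried EGFP (control, n = 4) or Cre-EGFP (mutant, n = 4). The postmitotic experiment used an EGFP plasmid throughout, in Lhx2lox/lox animals (control, n = 3) or NexCre/+; Lhx2lox/lox animals (mutant, n = 3). All 4 groups therefore carried the floxed Lhx2 allele and an EGFP reporter, and only the mutants carried Cre, so the presence of Cre and the loss of Lhx2 cannot be told apart. NexCre is expressed from the Neurod6 locus in excitatory neurons after their last division, whereas an electroporated plasmid reaches a patch of progenitors and the neurons born from them. Neurod6 itself was lower in the postmitotic mutants, as given below, and this cannot be told apart from the loss of Lhx2 there. Whether the libraries of a group came from separate animals is not in the labels, so p-values measure the spread between these libraries.

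In canonical Wnt signalling, a secreted Wnt binds a frizzled receptor with its co-receptor Lrp5 or Lrp6. Dishevelled then blocks the destruction complex of Axin, Apc and Gsk3b, and beta-catenin, encoded by Ctnnb1, accumulates and activates genes with TCF and LEF factors. Many of those genes, such as Axin2, Nkd1, Rnf43 and Znrf3, damp the pathway in return, while Ryk, Ror1, Ror2 and several frizzleds also carry Wnt signals that do not pass through beta-catenin. In developing cortex the pathway is known for the balance between division and differentiation of progenitors and, later, for the growth of axons and dendrites.

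The libraries held 22677019 to 29497595 counts in the progenitor and 21605777 to 25891416 counts in the postmitotic experiment, and each of the 4 progenitor controls was deeper than each of the 4 mutants. Lhx2 itself was not lower in the libraries labelled mutant: its estimate was 0.02 ± 0.07 (log2 change, mutant over control, with SE) in the progenitor experiment and 0.29 ± 0.06 in the postmitotic one, where it rose (adjusted p = 0.0276, quasi-likelihood test of edgeR, Benjamini-Hochberg adjustment). The counts cover whole genes and cannot show whether the floxed part was lost. All 7 excitatory neuron markers were detected and went both ways, with 2 called higher and 3 lower in the progenitor experiment and 1 higher and 3 lower in the postmitotic one. Of all genes, 12% were called higher and 11.4% lower in the progenitor experiment, and 0.895% and 1.06% in the postmitotic one. The summed level of these markers was 1701 to 1931 CPM (read counts scaled to a common library size) in progenitor controls against 1428 to 1552 CPM in mutants, without overlap. In the postmitotic experiment it was 1406 to 1478 against 1345 to 1401 CPM. That sum includes Neurod6, the locus that carries NexCre, which went from 171 ± 7.66 to 112 ± 18.6 CPM (SD, n = 3), and the other 6 markers summed to 1244 to 1301 CPM in controls and 1218 to 1310.1 CPM in mutants, which overlap. Summed CPM of 4 Y-linked genes was at most 0.0376 in the 4 progenitor controls and 0 in mutant 1, but 154, 99.8 and 172 in mutants 2, 3 and 4. In the postmitotic experiment it was 168 and 135 in controls 1 and 2, 140 in mutant 3 and at most 0.0463 in the other 3 libraries. No progenitor control carried Y-linked counts, so a comparison among libraries with such counts could not be made. With the Y-linked level as a covariate, the progenitor comparison rests largely on mutant 1, the only mutant without such counts, against the 4 controls.

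In the controls the core transducers had the highest levels of the module and several receptors and TCF factors the lowest. On a scale of CPM per kilobase of merged exons, Ctnnb1 stood at 126 ± 7.49 (SD, n = 4) in progenitor controls and 79.4 ± 3.19 (n = 3) in postmitotic controls. Apc followed with 109 ± 15.0 and 77.0 ± 6.51 on that scale, below Ctnnb1 by more than either SD in progenitor controls and within the spread in postmitotic controls. Next came Gsk3b with 38.1 ± 4.13 and 36.9 ± 1.41, Dact3 with 36.6 ± 0.663 and 28.2 ± 4.41, and Dvl1 with 29.5 ± 1.98 and 26.5 ± 1.54 CPM per kilobase, and the first 2 of these did not differ beyond their spread in progenitor controls. Among the frizzleds, Fzd3, which guides axons through planar polarity signalling, was highest with 16.0 ± 1.33 and 14.8 ± 1.11, and Fzd9 came second with 7.58 ± 0.413 and 7.47 ± 0.983 CPM per kilobase. Fzd5 was lowest of the 10, with 0.266 ± 0.0844 and 0.104 ± 0.0404 CPM per kilobase. Ryk, an atypical receptor with an inactive kinase domain, reached 9.71 ± 0.426 and 11.9 ± 0.0950 on that scale, whereas Ror1 reached only 0.157 ± 0.0177 and 0.0992 ± 0.0331. All 4 TCF and LEF genes were low: Tcf7 was highest with 2.48 ± 0.479 and 2.27 ± 0.0829 CPM per kilobase, and Lef1 stood at 0.742 ± 0.0993 and 0.362 ± 0.0914. Their partners in repression, Tle3 and Tle1, were higher, with 8.72 ± 0.371 and 6.39 ± 0.516 in progenitor controls. In all, 10 members in progenitor controls and 11 in postmitotic controls reached 10 CPM per kilobase, and 8 and 10 stayed under 1. The levels come from separate tables, and no test compared them between the experiments.

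**Figure D1:**
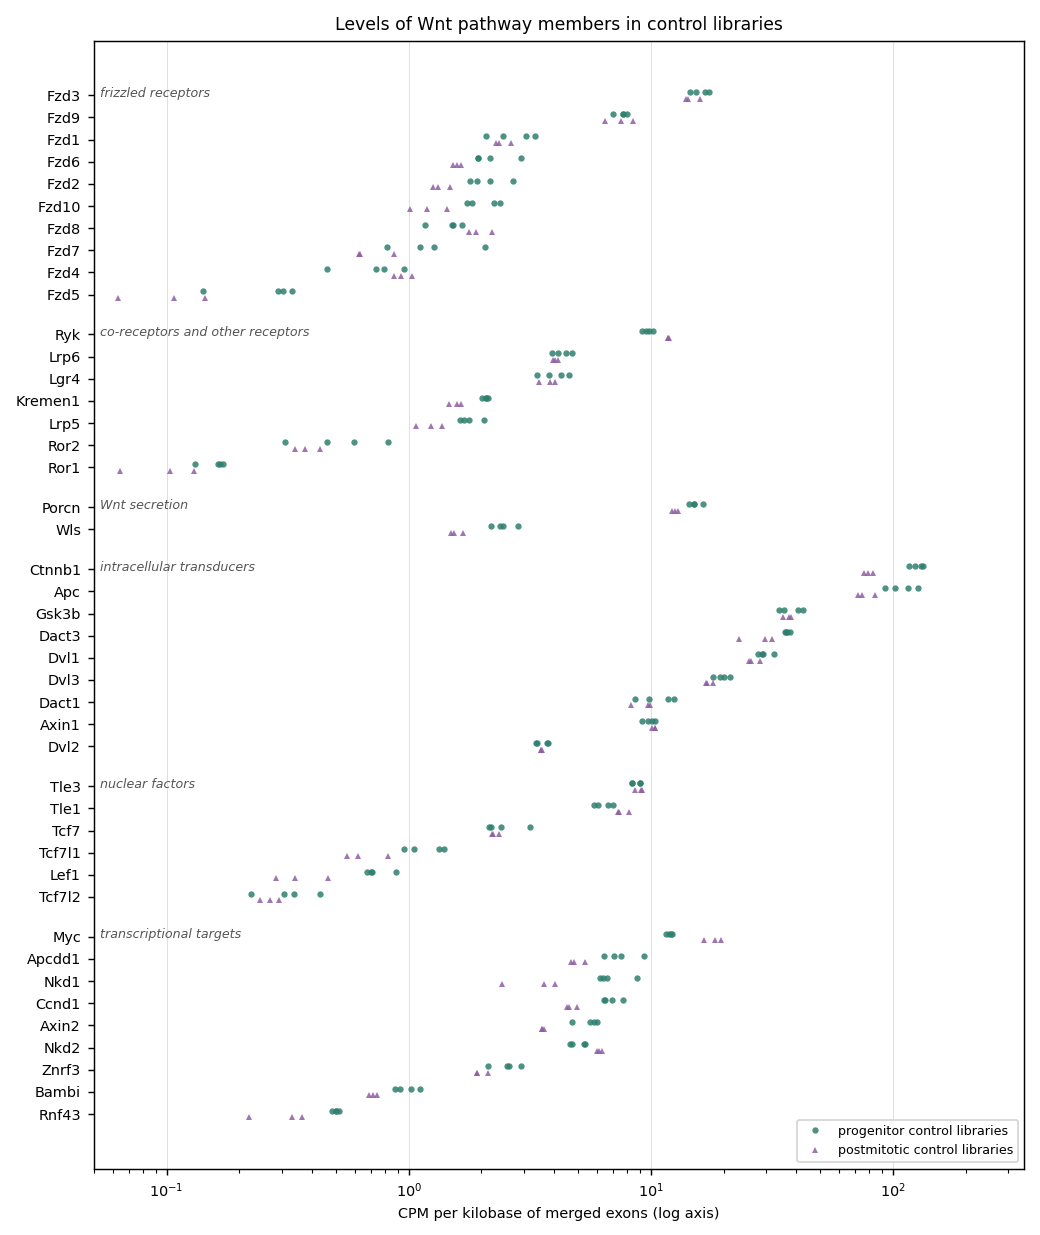
Level of each of the 43 members in the control libraries, as CPM per kilobase of merged exons on a log axis, grouped by role; each circle is 1 of 4 progenitor controls and each triangle 1 of 3 postmitotic controls. Ctnnb1 and Apc stand highest (means of 126 and 109 in progenitor controls) and Ror1 and Fzd5 lowest.

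In the progenitor experiment, 8 of the 43 members passed the test (18.6%), beside 23.4% of all 15295 genes tested, so the share called was not above that of genes at large. Fzd6, Ryk, Dact1, Tle1 and Myc rose (5 of 43, against 12% of all genes called higher), and Apc, Dact3 and Nkd1 fell (3 of 43, against 11.4% called lower). A gene is called at an adjusted p under 0.05, and all 43 members passed the filter on low counts in both experiments. By role, 1 of 10 frizzleds, 1 of 7 co-receptors and other receptors, 0 of 2 secretion genes, 3 of 9 transducers, 1 of 6 nuclear factors and 2 of 9 targets were called. The median log2 change of the members was 0.05, against 0.00 for all genes, and 18 of the 43 had an unadjusted p under 0.05. The CPM of mutants and controls did not overlap for 8 members, which is 18.6% beside 27% of all genes. The call counts moved with single libraries. Called higher were 2 members without control 4 or mutant 1, 3 without control 2 or mutant 3, and 7 without control 3. Called lower were 1 without control 2 or mutants 1, 2 or 3, and 5 without control 1. With the Y-linked level as a covariate, 2 members were called higher (Myc and Ccnd1) and 0 lower.

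**Figure D2:**
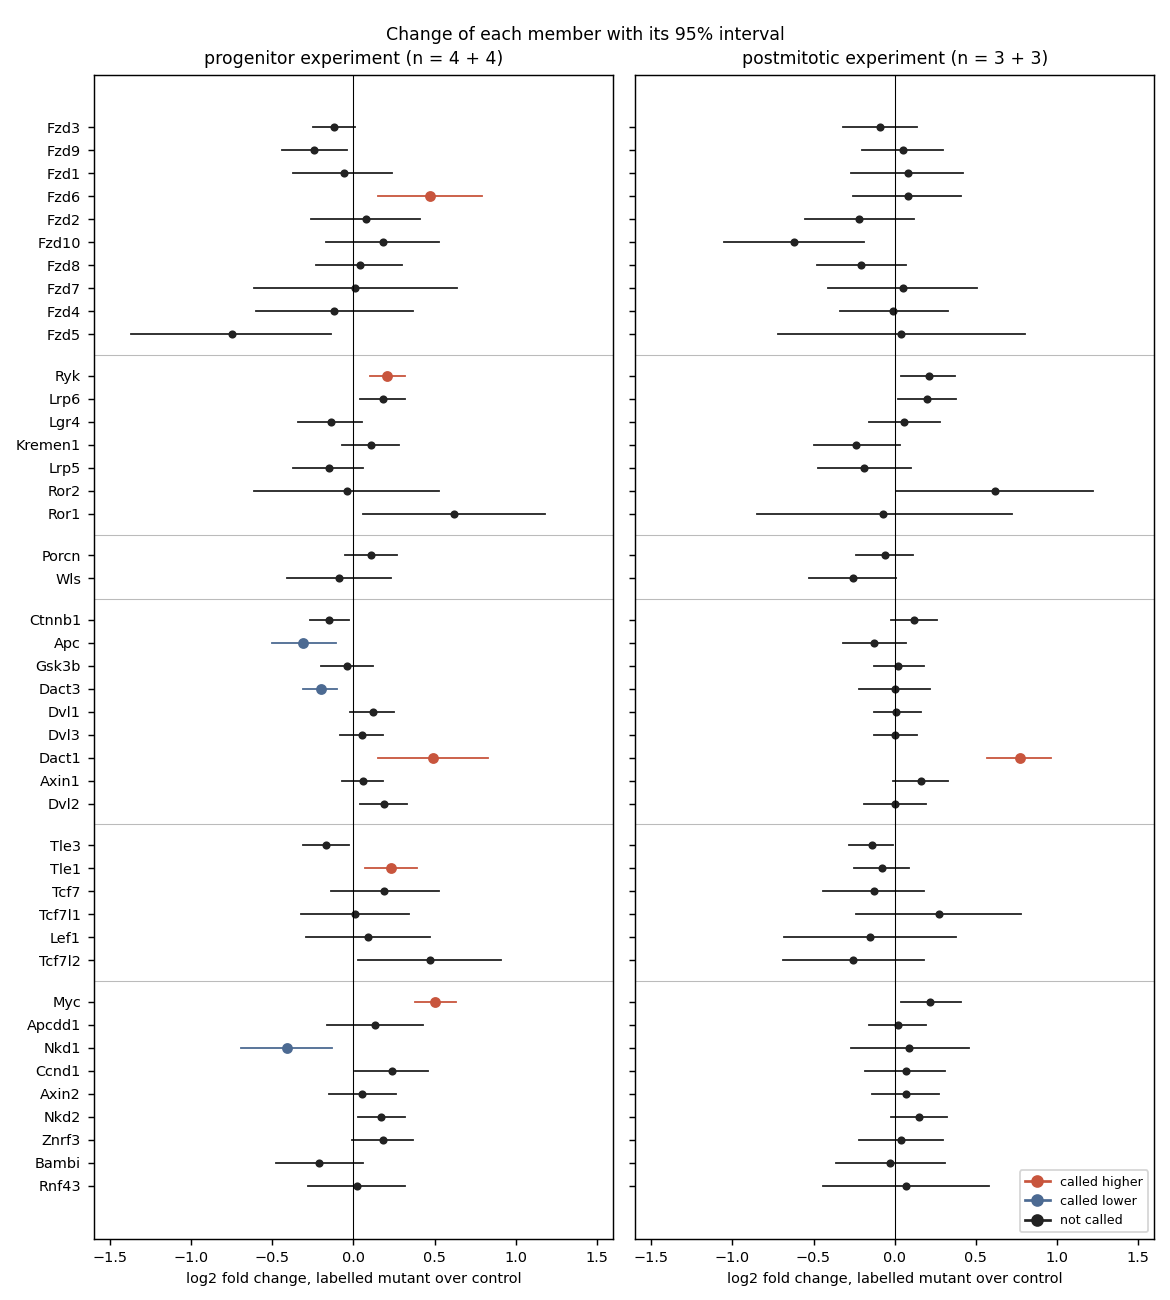
Log2 change of each of the 43 members, libraries labelled mutant over control, in the progenitor (4 against 4) and postmitotic (3 against 3) experiments, by role, with bars for the 95% interval and called members in colour. Most estimates lie within 0.25 of 0 (35 of 43 and 37 of 43), and Dact1 is called higher in both.

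Myc, a transcription factor of growth and a textbook beta-catenin target, had the smallest p of the members in the progenitor experiment. Its level was 33.2, 32.8, 31.3 and 32.3 CPM in controls 1 to 4, and 48.0, 48.2, 43.3 and 43.8 CPM in mutants 1 to 4. Every mutant lay above every control, mutant 1 without Y-linked counts included. The log2 change was 0.50 ± 0.06 (SE; adjusted p = 0.000222, quasi-likelihood test of edgeR, Benjamini-Hochberg adjustment). Myc kept its call under all 16 alternative analyses (another tool, scaling or filter, a replicate block, the Y-linked covariate, or 1 library left out), with adjusted p from 5.35e-12 to 0.00567 in edgeR and the other tools, the largest with the Y-linked covariate. Among the postmitotic libraries Myc stood at 45.2, 49.9 and 53.0 CPM in controls and 62.9, 56.8 and 52.9 CPM in mutants, so that the lowest mutant fell within the control range. Its estimate there was 0.22 ± 0.09 (edgeR adjusted p = 0.319), and the difference between the experiments, -0.28 ± 0.10 (postmitotic minus progenitor), did not pass the test (edgeR interaction, adjusted p = 0.106). The gene lies on chromosome 15 from 61985391 to 61990374, plus strand, in GRCm38, the build called mm10.

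Ryk and Dact3 moved by small amounts with little spread. Ryk stood at 44.6, 41.9, 46.4 and 43.3 CPM in the progenitor controls and 50.8, 50.7, 50.1 and 51.5 CPM in the mutants. The groups did not overlap, and Ryk rose by 0.21 ± 0.05 (log2, SE; adjusted p = 0.0138, edgeR with Benjamini-Hochberg adjustment). In the postmitotic libraries Ryk was again higher in every mutant, with 63.4, 66.2 and 56.3 CPM against 54.2, 53.4 and 53.6 CPM, and the estimate was the same 0.21 ± 0.08, but it did not pass the test over all genes (edgeR adjusted p = 0.295). Dact3 encodes a Dishevelled-binding protein of the Dapper family. It stood at 112, 107, 109 and 109 CPM in the progenitor controls and 98.8, 94.8, 97.9 and 88.2 CPM in the mutants, again without overlap. Dact3 fell by 0.20 on the log2 scale, with an SE of 0.05 (adjusted p = 0.0128, edgeR with Benjamini-Hochberg adjustment). In the postmitotic libraries its estimate was 0.00 ± 0.10, with controls at 69.3, 94.4 and 88.9 CPM and mutants at 88.2, 81.1 and 83.8 CPM between them. Both progenitor calls held under 15 of 16 alternatives and were lost with the Y-linked covariate (edgeR adjusted p = 0.129 and 0.274). With it the estimate of Ryk was 0.22 with an SE of 0.0825, and that of Dact3 was -0.14 with an SE of 0.0778. That fit rests largely on mutant 1 against the controls.

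Dact1, on chromosome 12 from 71309884 to 71320107 (plus strand), was the only member called in both experiments. Its protein, Dapper1, binds Dishevelled and in frog embryos and cultured cells is known to restrain or promote Wnt signalling depending on the setting. In the progenitor libraries Dact1 stood at 32.5, 46.8, 37.2 and 44.4 CPM in controls and 64.8, 66.1, 46.8 and 48.7 CPM in mutants. The groups did not overlap, but mutant 3 lay next to control 2 while mutants 1 and 2 were well above all others. The log2 change was 0.49 ± 0.15 (SE; adjusted p = 0.0432, quasi-likelihood test of edgeR, Benjamini-Hochberg adjustment). That call was lost in 8 of 16 alternatives, among them leaving out control 1, 3 or 4 or mutant 1 or 2, the replicate block and the Y-linked covariate, with adjusted p of at most 0.118 in these fits (edgeR). Its estimate was 0.41 to 0.62 over the 16, the highest with the covariate, in a fit that rests largely on mutant 1. In the postmitotic libraries the separation was wider, with 37.3, 31.1 and 36.8 CPM in controls and 61.6, 62.6 and 54.9 CPM in mutants. All 3 mutants lay far above all 3 controls.

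That postmitotic rise of Dact1 was 0.77 ± 0.09 on the log2 scale (SE; adjusted p = 0.000366, quasi-likelihood test of edgeR, Benjamini-Hochberg adjustment). It was the single member called in that experiment, 1 of 43 (2.33%) beside 1.96% of all 17775 genes tested (0.895% higher and 1.06% lower), and 0 members were called lower. The call held in all 15 alternatives, with adjusted p of 4.63e-16 to 0.00397 in edgeR and the other tools, and with the Y-linked covariate the change was 0.71. Layer markers moved in the same comparison: 8 deep-layer markers summed to 323 to 339 CPM in controls and 365 to 451 CPM in mutants, with 3 called higher, and 8 upper-layer markers to 1644 to 1678 and 1479 to 1634 CPM, with 3 called lower, both without overlap. In the progenitor experiment the upper-layer list had 3 markers called higher and 1 lower, and the deep-layer list 0 higher and 2 lower. Of all genes there, 12% were called higher and 11.4% lower, and the sums of both lists overlapped. The part of layer identity in the rise of Dact1 was not tested. The change of Dact1 did not differ detectably between the experiments: the difference was 0.27 ± 0.20, with a 95% interval of -0.16 to 0.70 (edgeR interaction, adjusted p = 0.443). Of the exon bases of Dact1, 34.9% also lie in exons of 4930474H06Rik on the opposite strand, which had 0 counts in every postmitotic library. No strand setting for featureCounts was given in the sources used here.

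**Figure D3:**
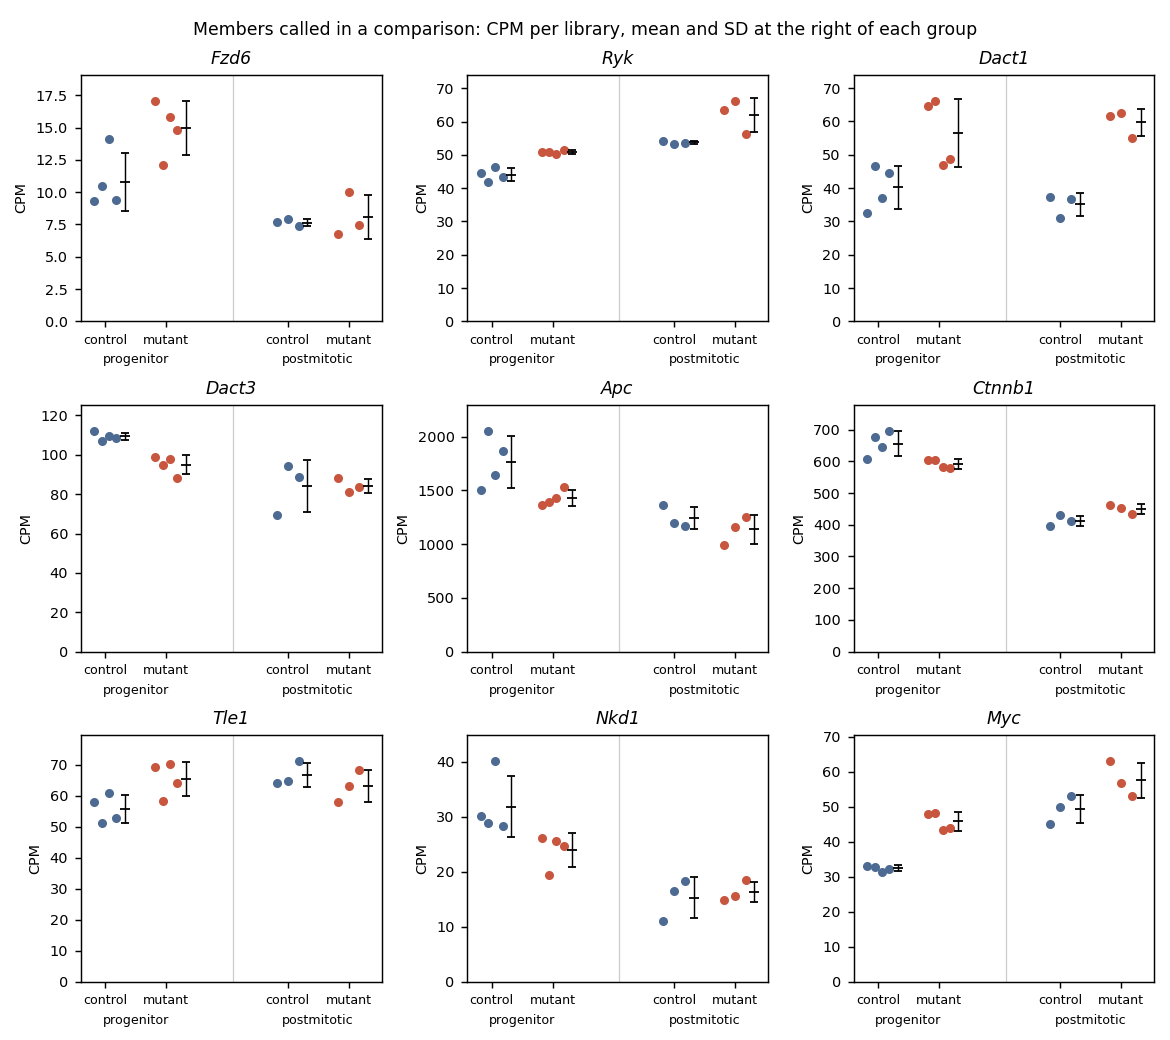
CPM per library of the 9 members called in a comparison, in progenitor and postmitotic controls and mutants; points are libraries, and the bars beside them give the mean and SD of each group. Dact1 is higher in all mutants of both experiments, while Ctnnb1 is lower in the progenitor mutants (578 to 605 CPM) and higher in the postmitotic ones (433 to 462 CPM).

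Promoter windows of 3 members are shown because the results turn on Dact1, the gene called in both experiments, and on Axin2, the standard readout, while Fzd7 holds a TCF/LEF word. Each runs from 250 bases before to 50 after the start site, from RefSeq on GRCm38.p6, all on the plus strand: Dact1 at chr12:71309634-71309933, Axin2 at chr11:108920099-108920398 and Fzd7 at chr1:59481897-59482196. Capitals mark a TCF/LEF word.
Dact1: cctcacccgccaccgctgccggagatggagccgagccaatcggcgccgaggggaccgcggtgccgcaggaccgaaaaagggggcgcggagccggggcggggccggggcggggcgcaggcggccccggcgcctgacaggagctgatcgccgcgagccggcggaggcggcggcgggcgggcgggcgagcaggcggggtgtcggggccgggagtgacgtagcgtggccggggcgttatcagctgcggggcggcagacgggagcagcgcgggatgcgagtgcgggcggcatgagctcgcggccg
Axin2: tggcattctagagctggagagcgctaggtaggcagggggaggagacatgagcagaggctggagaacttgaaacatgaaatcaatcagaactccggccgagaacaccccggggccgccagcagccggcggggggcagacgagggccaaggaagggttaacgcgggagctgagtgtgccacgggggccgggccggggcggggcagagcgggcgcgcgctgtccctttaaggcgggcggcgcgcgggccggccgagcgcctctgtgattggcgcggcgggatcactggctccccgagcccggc
Fzd7: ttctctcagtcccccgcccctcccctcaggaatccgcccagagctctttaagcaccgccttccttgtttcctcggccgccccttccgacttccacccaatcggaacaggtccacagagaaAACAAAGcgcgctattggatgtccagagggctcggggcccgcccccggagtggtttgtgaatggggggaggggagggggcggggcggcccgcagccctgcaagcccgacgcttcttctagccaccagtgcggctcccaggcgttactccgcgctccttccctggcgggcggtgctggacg
The words searched on both strands for TCF/LEF factors were CTTTGAA or its variant CTTTGAT, together with CTTTGTA or its variant CTTTGTT, and TAATTA, the core of LIM-homeodomain sites. Neither was in the Dact1 or Axin2 window, and the Fzd7 word starts 130 bases before the start site. A search of these short windows cannot show whether such sites lie elsewhere in or near the genes. RefSeq's table matched 28 of the 43 members with 35 windows. Of these 35, 3 held a TCF/LEF word (for Fzd7, Lef1 and Tcf7l2), beside 16.9% of all 32851 windows, and 0 held TAATTA, beside 5.29% of all windows. The windows of Dact1 and Axin2 were 79.7% and 70% G or C.

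Fzd6, Tle1, Apc and Nkd1 were called in the progenitor experiment with adjusted p closer to the threshold. Fzd6, a receptor best known for planar polarity in skin and the inner ear, stood at 9.32, 10.5, 14.1 and 9.35 CPM in controls and 17.1, 12.1, 15.9 and 14.8 CPM in mutants. Control 3 lay among the mutants, and the log2 change was 0.47 ± 0.15 (SE; adjusted p = 0.0393, edgeR with Benjamini-Hochberg adjustment). In the postmitotic libraries Fzd6 was at 7.66, 7.93 and 7.36 CPM in controls and 6.76, 9.99 and 7.48 CPM in mutants, which overlap fully. Tle1, a Groucho co-repressor that also serves Notch targets, stood at 58.0, 51.0, 60.8 and 52.9 CPM in progenitor controls and 69.1, 58.2, 70.1 and 64.0 CPM in mutants. Mutant 2 fell among the controls, and the log2 change was 0.23 ± 0.07 (SE; adjusted p = 0.0425, edgeR with Benjamini-Hochberg adjustment). The postmitotic values of Tle1 were 64.1, 64.7 and 71.1 CPM in controls and 58.0, 63.3 and 68.2 CPM in mutants, with an estimate of -0.08 ± 0.08 that did not pass the test.

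Apc is a component of the destruction complex and a microtubule-binding protein of neurites. It stood at 1500.3, 2050, 1646 and 1862 CPM in progenitor controls and 1362, 1389, 1424 and 1535 CPM in mutants. Control 1 lay below mutant 4, and the other controls lay above all mutants. Apc fell by 0.31 on the log2 scale, with an SE of 0.09 (adjusted p = 0.028, edgeR with Benjamini-Hochberg adjustment). The postmitotic libraries gave 1360.1, 1198 and 1164 CPM in controls and 994, 1159 and 1256 CPM in mutants, with an estimate of -0.13 ± 0.09 that did not pass. Nkd1, a feedback inhibitor that binds Dishevelled, stood at 30.2, 28.8, 40.1 and 28.3 CPM in progenitor controls and 26.1, 19.4, 25.6 and 24.8 CPM in mutants. The groups did not overlap, and control 3 was far above the rest. Nkd1 fell by 0.41 on the log2 scale, with an SE of 0.13 (adjusted p = 0.0416, edgeR with Benjamini-Hochberg adjustment). Without control 3 the estimate was -0.28, and the adjusted p was 0.061 (edgeR). In the postmitotic libraries Nkd1 overlapped, at 11.1, 16.5 and 18.3 CPM in controls and between 15.0 and 18.4 CPM in mutants.

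These 4 calls were not stable to the choice of libraries. Fzd6 lost its call in 7 of 16 alternatives, when control 1, 2 or 4 or mutant 1, 3 or 4 was left out and with the Y-linked covariate (edgeR adjusted p at most 0.101). Tle1 and Apc lost theirs in 6 each, with the same covariate, without control 2 or 4, and without mutant 1, 3 or 4 for Tle1 and mutant 1, 2 or 3 for Apc (edgeR adjusted p at most 0.124 and 0.094). Nkd1 lost its call in 9, without any 1 of the libraries other than control 4, with upper-quartile scaling and with the covariate (edgeR adjusted p at most 0.441). With the covariate the estimates were 0.68 for Fzd6, 0.33 for Tle1, -0.40 for Apc and -0.26 for Nkd1. Those of the first 3 were further from 0 than without it and that of Nkd1 was closer. These covariate estimates rest largely on mutant 1 against the controls. Marker genes of some other cells moved in the progenitor comparison, in which 12% of all genes were called higher and 11.4% lower. The summed level of 10 astrocyte markers was 1847 to 2394 CPM in progenitor controls and 1476 to 1835 CPM in mutants, with 4 of 10 called lower. Of the cycling-cell markers 4 of 8 tested were called higher, of the mural-cell markers 4 of 8 and of the oligodendrocyte lineage markers 3 of 12. Their sums overlapped, at 236 to 324 CPM in controls and 309 to 386 CPM in mutants for cycling cells, 183 to 300 and 264 to 354 CPM for mural cells, and 608 to 727 and 628 to 793 CPM for the oligodendrocyte lineage. The summed level of 6 meningeal fibroblast markers was 290 CPM in control 3 and 313 CPM in mutant 1, beside 25.8 to 139 CPM in the other 6 progenitor libraries, with none of the 6 markers called. In the microglia list 2 of 11 markers were called lower, beside the same 11.4% of all genes. Of the interneuron markers 1 of 9 was called, lower, and of the endothelial markers 0 of 12. The endothelial sums overlapped, at 221 to 320 CPM in controls and 236 to 352 CPM in mutants. The part of these cells in the members' changes was not tested, and in tissue RNA fewer cells of a type and less RNA per cell cannot be told apart.

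Ctnnb1, the gene of beta-catenin on chromosome 9 from 120929216 to 120960507 (plus strand), was the only member whose change differed between the experiments (1 of 43, beside 6.94% of the 15643 genes tested for a difference, 3.1% with a positive and 3.84% with a negative one). In the progenitor experiment its level was 607, 678, 644 and 695 CPM in controls and 604, 605, 581 and 578 CPM in mutants. In the postmitotic experiment it was 397, 430 and 411 CPM in controls and 462, 453 and 433 CPM in mutants. The groups did not overlap in either, with mutants on the lower side in the first and on the higher side in the second. Neither change passed alone, at -0.15 ± 0.05 and 0.12 ± 0.06 (log2, SE; adjusted p = 0.066 and 0.504, edgeR with Benjamini-Hochberg adjustment). The difference was 0.27 ± 0.08, postmitotic minus progenitor, with a 95% interval of 0.11 to 0.44 (adjusted p = 0.0435, edgeR interaction term).

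This difference was lost in 14 of 20 alternatives, among them the replicate block, the Y-linked covariate, the looser filter and 11 of the 14 fits that left out a library, with adjusted p of at most 0.239 (edgeR). Its size was 0.24 to 0.31 over all 20. It held without progenitor control 1 or 3 or postmitotic mutant 3. Exons on the opposite strand cover 14.6% of the exon bases of Ctnnb1, and one of the genes there, Ulk4, rose by 1.24 ± 0.21 in the progenitor experiment (log2, SE; adjusted p = 0.00203, edgeR) from 3.80 ± 1.20 to 8.98 ± 1.23 CPM (SD, n = 4). In the authors' deposited table of the progenitor experiment, Ctnnb1 has a log2 fold change of -0.16 and an adjusted p of 0.0181. That table, from DESeq2, calls 9 members, the 8 named above and Ctnnb1, and the authors' deposited postmitotic table calls 1, Dact1.

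Axin2 and Lef1, the usual readouts of beta-catenin activity, did not pass the test in either experiment. Axin2 stood at 26.1, 30.8, 33.0 and 32.3 CPM in progenitor controls and 36.5, 28.5, 29.8 and 32.2 CPM in mutants. The groups overlapped, and the log2 change was 0.05 ± 0.09, with a 95% interval of -0.15 to 0.26 (adjusted p = 0.705, edgeR with Benjamini-Hochberg adjustment). With the Y-linked covariate, in a fit that rests largely on mutant 1, it was 0.23, with an SE of 0.125. It was -0.01 without control 1 or mutant 1, and none of these passed. In postmitotic libraries Axin2 was at 19.5, 19.6 and 19.9 CPM in controls and 19.3, 21.4 and 21.0 CPM in mutants. The estimate was 0.07 ± 0.09, with an interval of -0.14 to 0.27 (adjusted p = 0.855, edgeR with Benjamini-Hochberg adjustment).

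Lef1 was low and more variable. It stood at 5.90, 6.22, 7.82 and 6.16 CPM in progenitor controls and 8.83, 5.00, 7.84 and 6.09 CPM in mutants. It was highest in control 3 and mutant 1, which also held the highest endothelial, mural, microglia, cycling-cell and meningeal marker sums of their groups. Axin2, Apcdd1, Znrf3, Tcf7, Tcf7l2, Fzd7, Fzd8, Lrp6, Ror1, Wls and Ccnd1 were highest in the same libraries of each group. So were the called members Fzd6, at 14.1 and 17.1 CPM, and Nkd1, at 40.1 and 26.1 CPM. The part of those cells was not tested. The estimate of Lef1 was 0.09 ± 0.17, with a 95% interval of -0.29 to 0.47 (adjusted p = 0.744, edgeR with Benjamini-Hochberg adjustment). With the Y-linked covariate, in a fit that rests largely on mutant 1, it was 0.44, with an SE of 0.221. Without mutant 1 it was -0.04, and neither passed. The postmitotic values were 2.98, 4.07 and 2.50 CPM in controls and 1.93, 3.07 and 3.64 CPM in mutants, with full overlap and an estimate of -0.15 ± 0.25 (edgeR adjusted p = 0.874). The 95% interval there ran from -0.68 to 0.38.

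**Figure D4:**
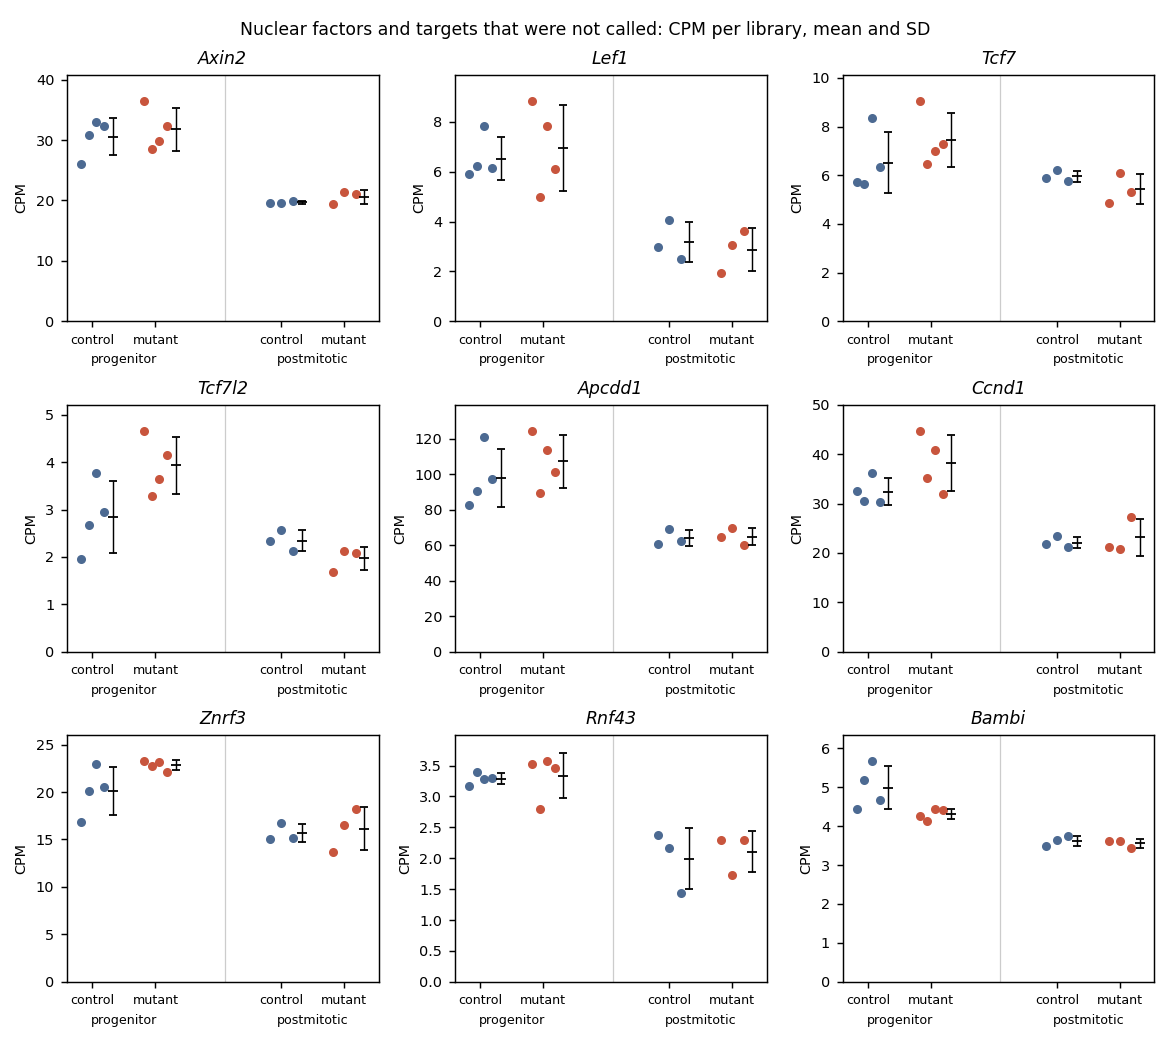
CPM per library of 9 nuclear factors and targets that were not called, among them Axin2, Lef1 and Tcf7l2; points are libraries, and bars give the mean and SD per group of 4 progenitor or 3 postmitotic libraries. Axin2 overlaps between control and mutant in both experiments, at 26.1 to 36.5 and 19.3 to 21.4 CPM.

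The remaining targets and nuclear factors were not called in the main fits. Some were called in the progenitor experiment when 1 library was left out. These were Tcf7l2 and Znrf3 without control 3, Nkd2 without control 1, and Tle3 and Ccnd1 without mutant 4 (edgeR). Among the targets, Nkd2 was higher without overlap in both experiments, at 0.17 ± 0.07 and 0.15 ± 0.08, and Ccnd1, which drives entry into the cell cycle, was at 0.24 ± 0.10 and 0.07 ± 0.11 (log2, SE). Rnf43 and Znrf3, ligases that remove frizzleds from the surface, had estimates of 0.02 ± 0.14 and 0.18 ± 0.09 in the progenitor and 0.07 ± 0.24 and 0.04 ± 0.12 in the postmitotic experiment. Apcdd1, a membrane inhibitor of Wnt signalling, was at 0.13 ± 0.13 and 0.02 ± 0.08, and Bambi, a pseudoreceptor for TGF-beta family ligands, at -0.21 ± 0.12 and -0.03 ± 0.16. Of the DNA-binding factors, Tcf7l2 had estimates of 0.47 ± 0.20 and -0.26 ± 0.20, Tcf7 of 0.19 ± 0.15 and -0.13 ± 0.14, and Tcf7l1 of 0.01 ± 0.15 and 0.27 ± 0.24. Tle3 was lower in all 3 postmitotic mutants, by an estimate of -0.14 ± 0.06, and at -0.17 ± 0.06 in the progenitor experiment, with neither called.

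The receptors other than Fzd6 and Ryk were not called in the main fits either. In the progenitor experiment Fzd3 and Fzd5 were called without control 1, and Lrp6 without control 3 or with DESeq2. Among the frizzleds, the estimates furthest from 0 were -0.75 ± 0.28 for Fzd5 in the progenitor and -0.62 ± 0.20 for Fzd10 in the postmitotic experiment (log2, SE). Fzd5 lay between 0.434 and 2.27 CPM in all libraries, and Fzd10 was at 3.29, 4.70 and 3.89 CPM in controls and 2.05, 2.83 and 2.84 CPM in mutants, without overlap. The difference of Fzd10 between the experiments was -0.80 ± 0.26, with adjusted p = 0.0767 (edgeR interaction term). It passed with the replicate block and without progenitor mutant 2. Fzd3, the most abundant frizzled per length, was at -0.12 ± 0.06 and -0.09 ± 0.10. The co-receptor Lrp6 was at 0.18 ± 0.06 and 0.20 ± 0.08, and its paralog Lrp5 at -0.15 ± 0.10 and -0.19 ± 0.13, with none called. Kremen1, a receptor of Dkk inhibitors, and Lgr4, the R-spondin receptor, had estimates within 0.25 of 0 in both experiments. The difference of Kremen1 between them was -0.34 ± 0.13 (edgeR interaction term, adjusted p = 0.133), and it passed without postmitotic mutant 3. Ror1 was at 0.62 ± 0.26 in the progenitor and Ror2 at 0.62 ± 0.28 in the postmitotic experiment, both under 4 CPM in every library and neither called. Of the secretion genes, Wls, the carrier of Wnt proteins to the surface, was at -0.09 ± 0.15 and -0.26 ± 0.13, and Porcn, the enzyme that acylates them, at 0.11 ± 0.07 and -0.06 ± 0.08.

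The other transducers stayed close to their control level. The 3 Dishevelled genes had estimates of 0.05 to 0.19 in the progenitor experiment, where Dvl2 alone did not overlap, at 21.2 to 23.7 CPM in controls and 24.3 to 26.5 CPM in mutants. Dvl2 was called in the progenitor experiment without control 1 (edgeR). Of the exon bases of Dvl2, 18.3% also lie in exons on the opposite strand. Acadvl, the gene there, had an estimate of 0.20 ± 0.07 in the progenitor experiment, beside 0.19 ± 0.07 for Dvl2. All 3 Dishevelled genes lay within 0.01 of 0 in the postmitotic experiment. Axin1, the scaffold of the destruction complex, was at 0.06 ± 0.06 and 0.16 ± 0.08, and the kinase gene Gsk3b at -0.04 ± 0.07 and 0.02 ± 0.07, with none called. Over the whole module the postmitotic median was 0.02, with 7 of 43 at an unadjusted p under 0.05 and 8 of 43 (18.6%) without overlap, beside 16.4% of all genes. The 95% interval lay within 0.5 on either side of 0 for 30 members in each experiment. Estimates were positive in both for 15 members, negative in both for 7, and of opposite sign or 0 for the other 21.

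A further 93 Wnt pathway genes, sorted into Wnt ligands, secreted agonists and antagonists, surface proteins, intracellular components and targets, were counted in the same way. The list was chosen with earlier results of these data known, so its shares cannot test whether Wnt genes were called more often. In the progenitor experiment 24 of 78 tested were called (30.8%, beside 23.4% of all genes), 12 higher and 12 lower, with a median of -0.01. For the postmitotic libraries, 12 of 77 were called (15.6%, beside 1.96%), 7 higher and 5 lower, with a median of 0.11. Of the other beta-catenin targets among them, 0 of 11 were called in the progenitor experiment by edgeR, with 3 at an unadjusted p under 0.05, and 3 of 12 in the postmitotic one. Those 3, named after their values were seen, were Cd44 and Mycn, which rose, and Ephb3, which fell. Among the intracellular components 11 of 32 and 3 of 32 were called.

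Dact2, the remaining Dapper gene, fell in both experiments, opposite to Dact1. It went from 37.0 ± 5.48 to 17.4 ± 3.94 CPM (SD, n = 4) and from 22.7 ± 2.40 to 8.50 ± 2.41 CPM (n = 3), changes of -1.09 ± 0.16 and -1.42 ± 0.17 on the log2 scale (SE; adjusted p = 0.00164 and 0.00121, edgeR with Benjamini-Hochberg adjustment). The change of Dact3, called lower in the progenitor experiment, differed between the experiments by 0.21 ± 0.11, which did not pass (edgeR interaction term, adjusted p = 0.264). By the smallest p, the other genes were Wnt9a, a ligand, at -1.54 ± 0.10, Tle2, a Groucho co-repressor, at 0.63 ± 0.07, and Rspo3, a ligand of Lgr receptors, at -0.86 ± 0.15 in the progenitor experiment. Rspo3 also fell in the postmitotic experiment, by an estimate of -1.50 ± 0.23 (adjusted p = 0.00372, edgeR). The postmitotic experiment gave Rspo2 at 1.18 ± 0.11, Dkk3 at 0.53 ± 0.08 and the secreted Wnt antagonist Frzb at -1.34 ± 0.21. Each call in the experiment that named the gene held in every alternative except that of Rspo3, which was lost with the Y-linked covariate (edgeR adjusted p = 0.0978).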

How the data were processed

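Counts were taken as the authors deposited them, 1 table of whole-number read counts per gene symbol for each experiment, not normalised. Per the labels' protocols, libraries were made with a directional kit and read in pairs of 150 bases. The build mm10 and the tools HISAT2, featureCounts and DESeq2 are named in the submitters' processing notes. No strand setting was given in the sources used here. Besides Dact1, Ctnnb1 and Dvl2, exons on the opposite strand cover 23.4% of the exon bases of Ccnd1, 17.8% of Fzd5 and 13.7% of Lef1. The authors also deposited DESeq2 results with log2 fold changes, test statistics (a score) and p-values, per the file headers. Adjusted p-values listed there at 0 that stand for missing ones (9215 and 39786 genes) were not read as calls. The means (a signal) in the authors' deposited postmitotic table match libraries 1 and 2 of each group, those in the progenitor table all 8 libraries. The files held 0 columns of other samples.

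The experiments were tested separately, by edgeR 4.0.16 under R 4.3.3 (filterByExpr, TMM, robust quasi-likelihood fit and F test, Benjamini-Hochberg adjustment over all genes, called under 0.05). The SE is the absolute log2 change over the root of F, and 95% intervals use the t distribution. CPM use TMM-scaled library sizes, and lengths are merged exons of GENCODE M21. The difference between experiments was an experiment-by-label interaction term, over the shared symbols in all 14 libraries. Alternatives used DESeq2 1.42.0, limma-voom (limma 3.58.1), other scalings and filters, a replicate block, a Y-linked covariate, and each library left out. That covariate was the log2 of the summed CPM of 4 Y-linked genes (Ddx3y, Eif2s3y, Kdm5d and Uty), on library sizes without TMM scaling. The pipeline was tested on simulated counts. Same-numbered libraries did not deviate together (correlations -0.44 to 0.09 and -0.20 to 0.03), so numbers were not treated as pairs.

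The members and gene lists were chosen with earlier results of these data known. Full values were given for members called in a comparison and for Axin2 and Lef1, and up to 4 other Wnt genes per experiment were named by smallest p. Promoters came from RefSeq's table on GRCm38.p6.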

Additional observations from a re-analysis of the deposited data

Results flagged for a closer look

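In 86 groups of 4 libraries, 1 per member and progenitor group, the highest or lowest library was compared with the rest. Chance gives such a gap in about 1 in 20 groups, and 4 were found. Nkd1 in progenitor control 3 was 40.1 CPM beside 28.3 to 30.2 CPM in the other controls, a gap of 0.839 of the group's range. Lef1 in the same library was 7.82 CPM beside 5.90 to 6.22 CPM, a gap of 0.836. That library also had the highest meningeal fibroblast marker sum of the controls, 290 CPM. Its endothelial, mural, astrocyte, microglia and cycling-cell marker sums were the highest of the controls too. The part of those cells was not tested. Axin1 in progenitor mutant 4 was 40.8 CPM beside 38.7 to 39.0 CPM, a gap of 0.858. Rnf43 in progenitor mutant 2 was 2.80 CPM beside 3.46 to 3.57 CPM, a gap of 0.856. The change of Ctnnb1 differed between the experiments by 0.27 on the log2 scale, lower in progenitor mutants and higher in postmitotic mutants, by the interaction term in edgeR.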

How the results depend on the processing

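With the Y-linked covariate, the progenitor counts fell to 1169 of all genes, 2 members higher, 0 members lower and 11 other Wnt genes, and the difference between experiments to 0 members. The progenitor fit with that covariate rests largely on mutant 1 against the controls. In the postmitotic experiment DESeq2 called 524 genes and the test of every gene with a count called 723, and the latter left 0 members in the difference. Leaving out 1 library gave 2383 to 3712 genes in the progenitor experiment, the fewest without mutant 3, with 2 to 7 members higher, 1 to 5 lower and 16 to 24 other Wnt genes. In the postmitotic experiment it gave 160 to 467 genes and 6 to 12 other Wnt genes, the fewest of both without control 2 (197 genes without control 3), with 1 member higher and 0 lower each time, and 0 to 2 members in the difference.

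Same-numbered libraries were not paired by the labels. With the replicate block, 3073 and 246 genes were called, with 4 members higher and 3 lower in the progenitor experiment and 1 higher and 0 lower in the postmitotic one. Other Wnt genes came to 23 and 10, and the difference held 1 member, Fzd10 in place of Ctnnb1. Of the controls, 1 of 4 and 0 of 3 correlated best with the mutant of their own number. Beyond the counts, single-gene values were tracked for the members called in a comparison, Axin2, Lef1 and the other Wnt genes named by smallest p. Of these, 600 kept their direction and side of the threshold under an alternative, 53 lost their call and 2 gained one (Ctnnb1 in the progenitor experiment). Members outside this set also gained calls, among them Fzd5, Tcf7l2 and Tle3 in single fits of the progenitor experiment. Another 30 of the tracked values changed sign, none called with either sign, and the cause was not tested. With the Y-linked covariate these were postmitotic Dact3 (-0.02) and Lef1 (0.06) and the Axin2 difference (-0.09). The Ryk difference was 0.01 with DESeq2, RLE scaling or every gene with a count. Leaving out 1 library gave -0.01 to 0.11 for Axin2 and -0.04 to 0.22 for Lef1 in the progenitor experiment, and -0.12 to 0.09 for Dact3, -0.09 to 0.24 for Nkd1, -0.35 to 0.07 for Lef1 and -0.10 to 0.19 for Fzd6 in the postmitotic one. The difference was -0.05 to 0.07 for Ryk and -0.04 to 0.09 for Axin2. Added after the data were seen, postmitotic libraries 1 and 2 alone left Dact1 called. Depth was ample for most members, but those under 1 CPM per kilobase, such as Ror1 and Fzd5, had wide intervals.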
